A study of Homo sapiens with 72 samples.

Results

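The glycolysis genes described here are PKM, LDHA, HK1, HK2, GPI, PFKP, ALDOA, GAPDH, PGK1 and ENO1, which are 10 of the 20007 protein-coding genes of GENCODE 44 on chromosomes 1 to 22, X and Y. They were selected on a measured value, an H3K4me2 peak at PKM that Raji cells had after bryostatin and not before, with the other glycolysis genes listed by name, and each was located in hg38 to read the peaks within 1 kb of its annotated starts and over the gene with 3 kb on either side. Because that H3K4me2 contrast of Raji chose the genes, their values in it are given as a description with no test.

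Glycolysis splits glucose into pyruvate in the cytosol and yields ATP and NADH without oxygen. Hexokinase traps the sugar in the cell, a chain of shared enzymes carries it to phosphoenolpyruvate, pyruvate kinase makes pyruvate, and lactate dehydrogenase turns pyruvate into lactate while restoring NAD. Dividing lymphocytes and B-cell tumours use much glucose in this way. H3K4me3 marks the starts of active genes, H3K4me2 covers both those starts and more distant regulatory regions, and H3K27me3 is a mark of Polycomb repression.

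The 3 marks were profiled by Cut&Tag, in which an antibody tethers a transposase that cuts and tags the DNA near a histone mark, in Raji (an EBV-carrying Burkitt lymphoma line) and in NALM6 and REH (B-cell precursor leukemia lines). Each line was untreated or given 1 nM bryostatin, an activator of protein kinase C, overnight by the labels (a legend of the study gives a full day), and every line, treatment and mark had 3 libraries, 54 in all. All groups came from cell lines grown in culture, so each group stands for 1 line, and nothing in the labels says that the 3 libraries came from separate cultures. The p-values below therefore measure only the spread between these libraries.

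Mapped reads could be read from the signal steps of 46 libraries and lay between 5.12 and 47.9 M (median 18.8 M). In Raji H3K4me2 the untreated libraries had 8.31, 6.7 and 13.9 M reads and the treated ones 15.6, 18.8 and 16.1 M, so the treated libraries were all deeper. Replicate 1 of NALM6 carried another signal scaling and shorter peaks, and the Raji H3K27me3 library untreated 2 had a peak at 57.1% of all coding genes against at most 28.1% in any other H3K27me3 library. H3K4me3 lay at 6 of 6 B-lineage marker genes in every Raji library, at 5 or 6 in REH and at 3 to 6 in NALM6, and at 0 of 4 T-cell, 0 of 2 erythroid and at most 1 of 4 monocyte markers.

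The results turn on 4 H3K4me2 regions and on the promoter of LDHA, whose sequences are given 5′ to 3′ on the strand of the gene. Each region is shown as the 200 bases around its highest signal. The PKM upstream region (chr15:72237465-72237664, hg38, minus strand) is the one that had a peak only in bryostatin-treated Raji cells, and it lies between PKM and PARP6 with no annotated exon. The PKM intron 1 region (chr15:72226825-72227024, minus strand) held the highest H3K4me2 of the locus in Raji. The HK2 intron 1 region (chr2:74849295-74849494, plus strand) and the GPI upstream start region (chr19:34359195-34359394, plus strand) had a peak in all Raji and no REH libraries. The GPI window lies just before the upstream GPI starts and overlaps an exon of an unnamed long non-coding RNA on the minus strand. The LDHA promoter (chr11:18394313-18394562, plus strand) is the 250 bases before the RefSeq start in GRCh38.p14, shown because LDHA had the largest difference between Raji and REH among the 9 of these genes that could be tested. Capitals mark TGANTCA, the core bound by AP-1, in the first sequence, and ACGTG, the core bound by hypoxia-inducible factor, in the others, read on both strands.
PKM upstream: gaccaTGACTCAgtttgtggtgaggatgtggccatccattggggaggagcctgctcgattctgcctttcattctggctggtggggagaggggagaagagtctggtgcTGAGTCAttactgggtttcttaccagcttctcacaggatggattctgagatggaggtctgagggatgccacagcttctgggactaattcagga
PKM intron 1: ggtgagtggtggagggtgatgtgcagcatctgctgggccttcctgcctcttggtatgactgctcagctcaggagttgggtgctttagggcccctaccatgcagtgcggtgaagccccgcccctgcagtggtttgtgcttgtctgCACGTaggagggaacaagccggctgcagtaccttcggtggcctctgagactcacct
HK2 intron 1: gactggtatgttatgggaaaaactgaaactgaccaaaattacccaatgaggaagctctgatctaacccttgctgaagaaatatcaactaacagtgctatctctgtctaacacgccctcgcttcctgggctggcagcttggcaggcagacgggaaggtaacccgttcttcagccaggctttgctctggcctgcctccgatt
GPI upstream start: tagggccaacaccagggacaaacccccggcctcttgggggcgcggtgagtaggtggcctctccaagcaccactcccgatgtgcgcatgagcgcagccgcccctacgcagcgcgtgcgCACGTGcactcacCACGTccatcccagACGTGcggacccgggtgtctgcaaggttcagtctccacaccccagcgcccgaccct
LDHA promoter: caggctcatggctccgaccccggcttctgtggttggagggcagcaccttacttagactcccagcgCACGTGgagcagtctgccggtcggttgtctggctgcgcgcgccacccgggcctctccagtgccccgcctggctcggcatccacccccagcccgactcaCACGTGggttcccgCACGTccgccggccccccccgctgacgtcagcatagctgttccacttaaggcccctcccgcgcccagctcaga

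The PKM upstream window held 2 AP-1 matches, TGACTCA at bases 6 to 12 and TGAGTCA at bases 108 to 114. TGANTCA reads the same on both strands. Among the 22540 windows of 200 bases around the H3K4me2 summits of Raji bryostatin 1, 9.87% held such a match and 0.998% held at least 2. Of the 20 Raji H3K4me2 regions with a peak in all 3 treated and no untreated libraries, 7 (35.0%) held a match, this one included. These 20 share the pattern by which the PKM region was chosen. The difference between the shares was not tested, and they were not matched for CpG or distance to a start. The PKM upstream window has 1 CpG, the PKM intron 1 window 5, the HK2 window 5 and the GPI window 18, against a median of 6 over the summit windows. ACGTG was found at 5 positions of the LDHA promoter, some of them overlapping within CACGTG, and at 4 of the GPI window. It occurred in the promoters of 6 of the 10 genes (LDHA, HK2, GPI, ALDOA, GAPDH and PGK1), and in 18.5% of 35116 promoters of 250 bases and 15.0% of the summit windows. ACGTG holds a CpG, and these shares were not matched for CpG. The 6 windows held 22, 34, 10, 9, 22 and 32 CpGs in that order, against a median of 11 over the promoters. The windows of PKM, PFKP, ENO1 and HK1, without ACGTG, held 28, 28, 27 and 1. The HK1 window lies before the RefSeq start near -48863 bp, which had no peak, and the marked HK1 start was not searched. The windows of GAPDH (chr12:6535014-6535263) and PFKP (chr10:3067720-3067969) lie past the canonical starts at 6534517 and 3067548. That of ALDOA lies at the start cluster -1596 bp from its canonical start. The consensus of NF-kB and the motif of EBF1 were not found in the 5 printed sequences, and 5.22% and 1.12% of summit windows held them. Such matches are letters in a window and were not tested as binding sites.

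PKM encodes the pyruvate kinase that makes pyruvate and ATP in the last step of glycolysis, and lies at chr15:72199029-72231819 on the minus strand (ENSG00000067225.21), with its canonical start at 72231190. The H3K4me2 region with peaks in all 3 treated Raji libraries spanned chr15:72235801-72238450, or 2650 bp. It was labelled internal to PKM when it was chosen, but the annotation places it 4611 to 7260 bp upstream of the canonical start and 3982 bp beyond the outermost PKM start. It is therefore outside both the gene and its 3 kb flank, and PARP6, an ADP-ribosyltransferase gene, lies 2731 bp farther on. Regions with peaks in all 3 treated and 0 of 3 untreated Raji libraries made up 0.0904% of the Raji H3K4me2 regions.

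In the treated Raji libraries the total H3K4me2 signal of this region was 1.32, 1.07 and 0.499 times the median peak of the library. The untreated libraries had no peak there. The peaks were 2430, 2400 and 1970 bp long, their mean signal was 153, 162 and 119 RPKM, and their maxima were 717, 410 and 428 RPKM at -6375, -6305 and -6375 bp from the canonical start. These are ordinary to small peaks, standing at percentiles 57.7, 52.3 and 12.8 of the peaks of their libraries. The lowest peak maximum called anywhere in the untreated libraries was 108, 239 and 93.8 RPKM. Their lowest total signal was 0.27, 0.475 and 0.328 times the median peak, and treated replicate 3 had 0.499 in this region. The part of the shallower untreated sequencing in the missing peaks was not tested. With only the upper 0.5 of peaks of each library, or with equal numbers of peaks, 2 of 3 treated and 0 of 3 untreated libraries had the peak.

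H3K4me3 was called over the same stretch in treated Raji replicates 1 and 2, at 0.0753 and 0.12 times the median peak, and in no other H3K4me3 library. No REH or NALM6 library and no H3K27me3 library had a peak there. Over the 18 H3K4me2 libraries and 29882 merged regions, the regions whose signal followed this one most closely lay nearest to ARF6 (chr14:49959611-49963220, Pearson r = 0.998), TAF1B (chr2:9752361-9755110, r = 0.998), PLCD3 (chr17:45123401-45124840, r = 0.99) and IL17REL (chr22:50015551-50018200, r = 0.983). Each had peaks in the 3 treated Raji libraries and in no other, so these values rest on the same 3 of 18 points, which were deeper than the untreated Raji libraries. The next region, at a start of ZNFX1, had a peak in 4 libraries (r = 0.932).

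**Figure D1:**
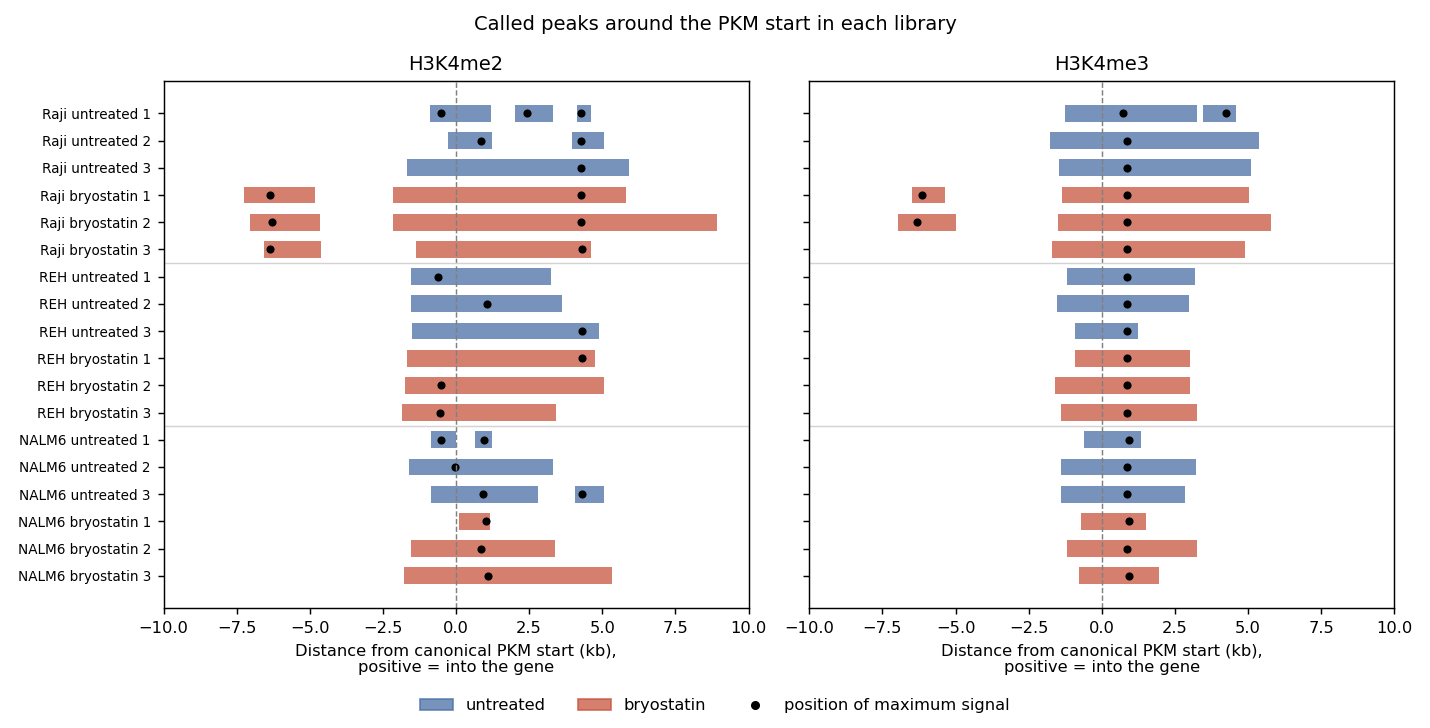
Called peaks (bars) of each of the 36 H3K4me2 and H3K4me3 libraries around PKM, with distance in kb from the canonical start on the horizontal axis (positive into the gene) and a dot at the maximum of each peak. The 3 treated Raji H3K4me2 libraries have a bar around -6375 bp that the untreated libraries lack, and all 6 Raji H3K4me2 libraries have a maximum near 4265 bp inside the gene.

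Inside PKM the highest H3K4me2 signal in Raji stood in intron 1, 4265 to 4295 bp past the canonical start, and it was present without bryostatin. Its maximum was 3200, 2900 and 1710 RPKM in the untreated Raji libraries and 1400, 1220 and 2140 RPKM in the treated ones. The 2 highest values were untreated and the groups overlapped. A peak had its maximum at this position in 2 of 6 REH libraries (1080 RPKM in untreated 3 and 968 RPKM in bryostatin 1) and in 1 of 6 NALM6 libraries (2110 RPKM in untreated 3). In the other REH libraries the maximum lay between -615 and 1065 bp from the start. H3K4me3 peaked instead at 855 bp past the start in all REH libraries and in 5 of 6 Raji libraries, and PKM starts from 11765 bp on into the gene had no peak within 1 kb in any library.

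A peak at a start was the rule for all 10 genes. H3K4me3 was called within 1 kb of a start of 10 of 10 genes in each Raji library, 9 or 10 in REH and 8 to 10 in NALM6. The share of all coding genes was 49.5 to 54.3% in Raji, 42.3 to 58.3% in REH and 26.0 to 53.9% in NALM6. H3K4me2 was called at 9 or 10 genes in Raji and REH and at 5 to 10 in NALM6. Among all coding genes its share was 44.6 to 57.9% in Raji, 49.4 to 62.4% in REH and 27.5 to 52.1% in NALM6. PGK1 was the gene most often without a peak. H3K27me3 was called at 9 of the 10 in Raji untreated 2, the library that stood apart, and at none in 14 of the other 17 libraries. With that library the marked pairs of gene and library numbered 14 and without it 5, and they were 0 in all 6 REH libraries. In those REH libraries 10.7 to 18.7% of all coding genes had an H3K27me3 start peak. Of 10 tissue-restricted enzymes of the pathway, 2 or 3 had H3K27me3 in each REH library and 7 in none. GAPDHS, the testis form of glyceraldehyde-3-phosphate dehydrogenase, had it at a start in 6 of 6 REH libraries.

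Levels were compared between genes as mean signal per called base of the peaks within 1 kb of the canonical start, in multiples of the same quantity for the median peak. HK1, the hexokinase of most tissues (chr10:69269984-69401884, plus strand), had 0.659 ± 0.042 of H3K4me3 in untreated Raji cells and 1.09 ± 0.323 in REH (SD, n = 3 libraries each). HK2, the inducible hexokinase (chr2:74834127-74893359, plus strand), had 1.62 ± 0.216 and 1.76 ± 0.402. HK2 carried more H3K4me3 per base than HK1 in each of the 12 Raji and REH libraries. GPI, which isomerizes glucose-6-phosphate (chr19:34359480-34402413, plus strand), had 1.55 ± 0.088 in Raji and 1.02 ± 0.0829 in REH. PFKP, the platelet form of phosphofructokinase that commits the sugar to glycolysis (chr10:3066333-3137718, plus strand), had 1.08 ± 0.13 and 1.25 ± 0.0512. ALDOA, which cleaves fructose bisphosphate (chr16:30064164-30070457, plus strand), had 1.85 ± 0.153 and 2.05 ± 0.457.

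GAPDH, which oxidizes glyceraldehyde-3-phosphate (chr12:6534512-6538374, plus strand), had 1.84 ± 0.159 in untreated Raji cells and 1.50 ± 0.269 in REH (SD, n = 3 each). PGK1, the first ATP-making enzyme of the pathway (chrX:77910739-78129295, plus strand), had 0.644 ± 0.259 in Raji (n = 3) and 0.536 ± 0.081 in the 2 REH libraries with a peak. PGK1 was lowest of the 10 in both lines, next to HK1 in Raji, from which it did not differ beyond the SD. ENO1, the enolase (chr1:8861000-8879190, minus strand), had 2.05 ± 0.428 and 1.66 ± 0.273. PKM had 1.68 ± 0.408 and 2.00 ± 0.645, and LDHA, the lactate dehydrogenase subunit of muscle and tumours (chr11:18394560-18408425, plus strand), had 1.95 ± 0.201 and 1.56 ± 0.217. From highest to lowest in Raji the order was ENO1, LDHA, ALDOA, GAPDH, PKM, HK2, GPI, PFKP, HK1 and PGK1, in which the first 7 lie within their SDs of their neighbours. In NALM6 the same quantity ran from 0.432 ± 0.00382 for PGK1 (n = 2) to 2.12 ± 0.624 for HK2 (n = 3).

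**Figure D2:**
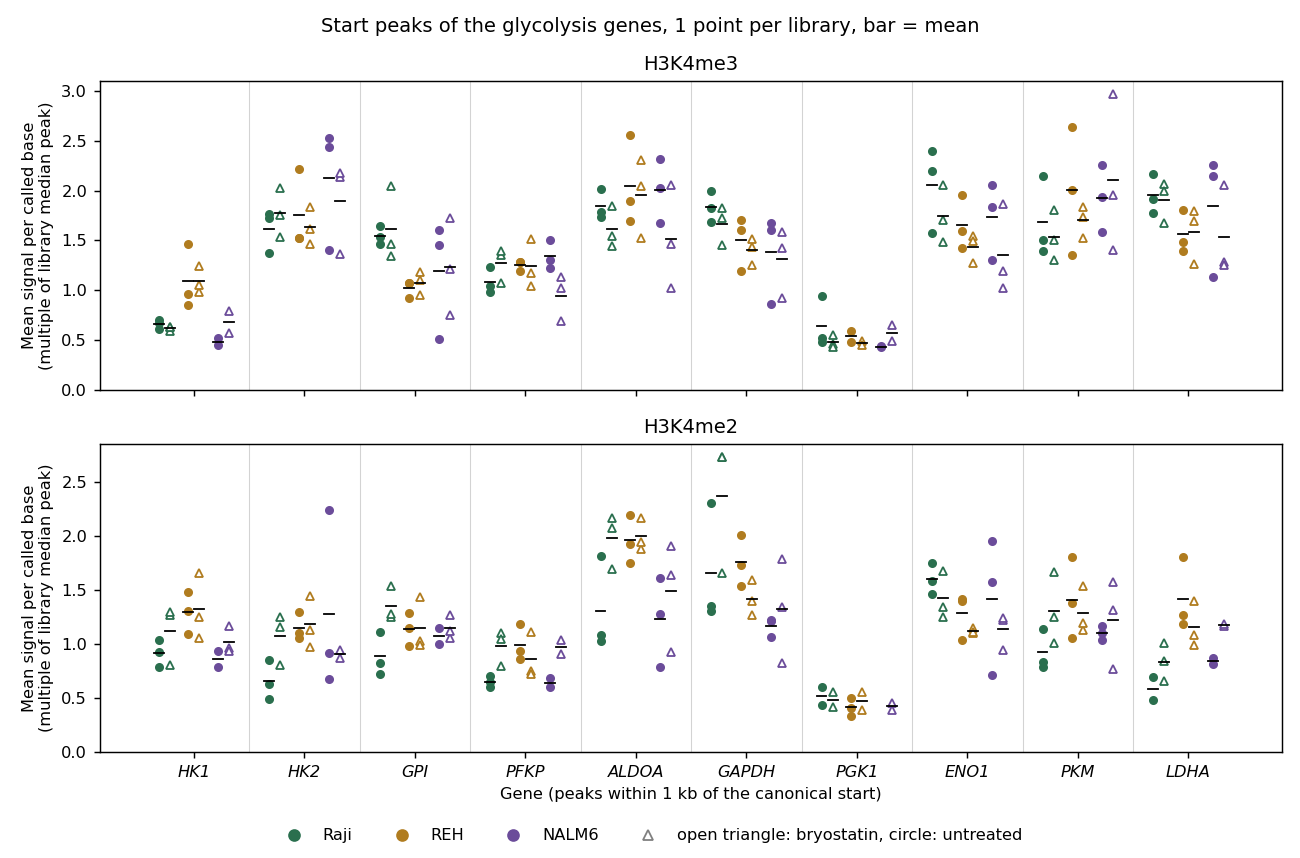
Mean H3K4me3 (top) and H3K4me2 (bottom) signal per called base at the canonical start of each gene, in multiples of the library's median peak, with 1 point per library, circles for untreated and triangles for bryostatin, colours for the lines and a bar at the mean. PGK1 stands lowest in both panels, with 0.644 for H3K4me3 in untreated Raji cells, and HK1 is low for H3K4me3 in Raji and NALM6 (0.659 and 0.483).

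Several of these genes have more than 1 annotated start. For HK1 only the cluster at the canonical start (69318084 to 69318889) was marked, and its 7 other start clusters, from -48863 to 63870 bp of the canonical start, had no peak of any mark in any library. For ALDOA the H3K4me3 maximum stood at -655 bp from the canonical start in all untreated Raji and REH libraries. GPI differed between lines: a cluster of 3 coding transcripts starts at 34359480 to 34359734, at -5716 bp from the canonical start at 34365196, and it was marked in Raji.

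Bryostatin was compared with untreated cells on the total signal of the merged region at each start, as log2 centred on the median region of the library. This asks whether the starts of the glycolysis genes responded to the drug. None of the 10 genes was called in the 5 tested comparisons (limma without pairing, Benjamini-Hochberg adjusted p at 0.05 over all regions). In Raji H3K4me3 0 of 10 were called, against 0.155% of all regions, with a median change of 0.11 and a range from -0.04 for GAPDH to 0.23 for GPI (lowest adjusted p 0.931, 0 with unadjusted p under 0.05). In REH H3K4me3 0 of 9 were called, against 1.67% of regions, with a median of 0.05. In REH H3K4me2 0 of 9 were called, against 1.45% of regions, with a median of -0.04 and 1 gene (LDHA) with an unadjusted p under 0.05. In NALM6 0 of 8 (H3K4me3) and 0 of 4 (H3K4me2) were called, and 0.0% of all regions were called for either mark. None of the 9, 8 and 4 genes that could be compared between lines had a different response in an interaction test (limma) of Raji against REH for H3K4me3, where 0.0776% of regions were called, or of NALM6 against REH for H3K4me3 and H3K4me2, where 0.0% were.

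The gene nearest to a change was LDHA in REH H3K4me2. Its centred log2 signal was 0.56, 0.40 and 0.32 in the untreated libraries and 0.20, 0.11 and 0.18 in the treated ones. The treated values were all lower, by -0.26 (SE 0.0912) on the log2 scale, with an unadjusted p of 0.0129 and an adjusted p of 0.285 (limma), or 0.144 with a replicate block. HK1 in REH H3K4me3 also had separate groups, with a change of 0.15 (SE 0.0702, limma adjusted p = 0.491). The share of all regions with separate groups on this scale was not counted. For PKM the change was 0.01 (SE 0.0917, limma adjusted p = 0.992) in Raji H3K4me3, 0.12 (SE 0.0704, adjusted p = 0.618) in REH H3K4me3 and -0.03 (SE 0.0931, adjusted p = 0.944) in REH H3K4me2. The NALM6 values of PKM were 0.15 (SE 0.199) and -0.20 (SE 0.334), with a spread several times that of REH.

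In Raji H3K4me2, where the genes were chosen and no test is given, 9 genes had a start region in all 6 libraries and their median change was 0.19. Over all regions of this contrast 0.0% were called by limma. HK2 had centred log2 signals of -0.58, -1.09 and 0.02 untreated and 0.32, 0.26 and 0.27 treated, a change of 0.83 (SE 0.235). ENO1 had 0.79, 0.86 and 0.63 untreated and 1.27, 1.27 and 1.27 treated, a change of 0.51 (SE 0.131). Only these 2 of the 9 had separate groups, a pattern that was not counted over all regions on this scale. In the summed signal of the gene window, in multiples of the median peak, the groups of both genes overlapped. With multiples of the median region called in all 6 libraries, a choice made after seeing the data, they separated. PKM had 0.96, 0.84 and 1.21 against 1.16, 1.20 and 1.20, a change of 0.19 (SE 0.14) with overlapping groups, and GAPDH was the one gene with a negative value (-0.07). Without centring all regions of this comparison shift by 0.24 and those of Raji H3K4me3 by 0.26 on the log2 scale.

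**Figure D3:**
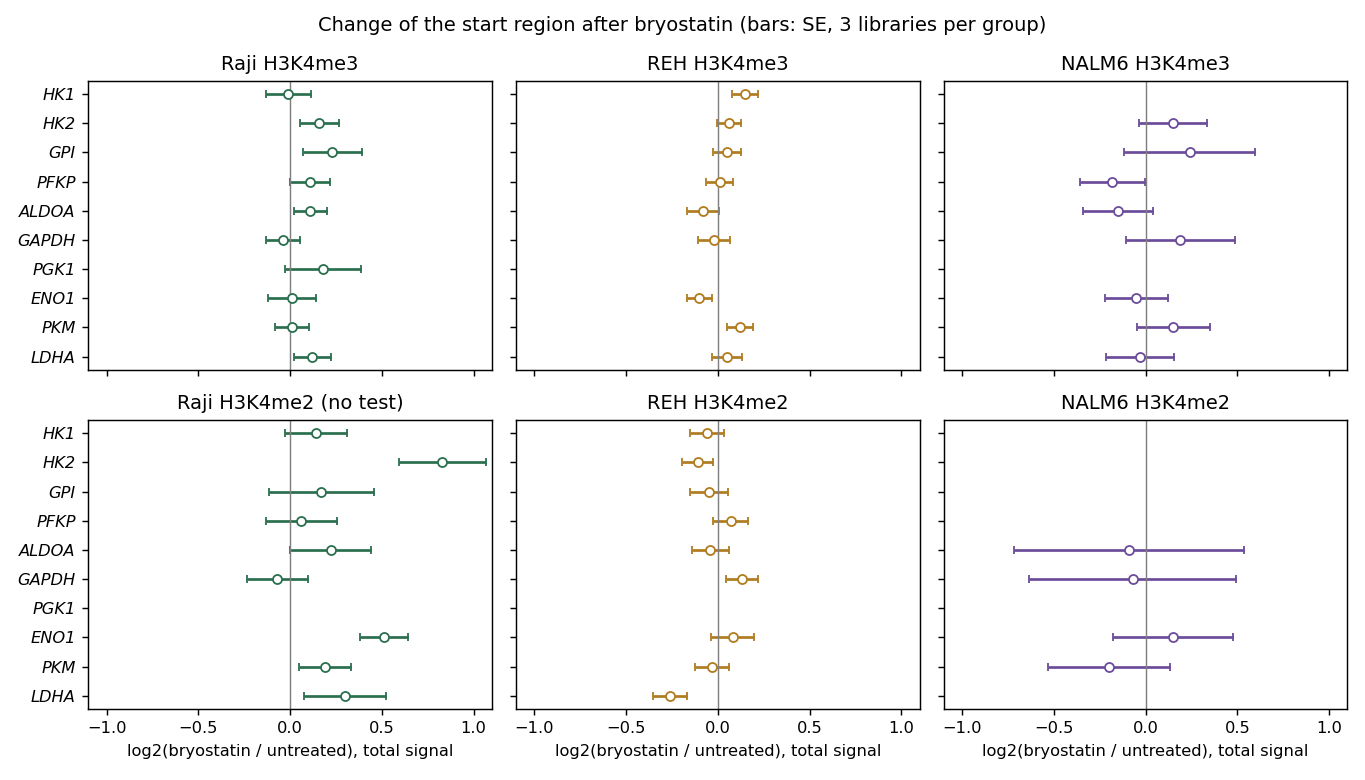
Change of the start region after bryostatin as log2(bryostatin / untreated) of the total signal on the horizontal axis, for each gene, line and mark, with bars of 1 SE and 3 libraries per group. Apart from HK2 (0.83) and ENO1 (0.51) in the untested Raji H3K4me2 panel the changes lie between -0.26 and 0.30. The SE reaches 0.624 in NALM6 H3K4me2, and a missing point is a gene without a region in all 6 libraries.

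Over the whole gene with its 3 kb flanks, the summed peak signal separated treated from untreated libraries in 0 of the 40 sets of gene, line and mark outside Raji H3K4me2 (lowest exact two-sided permutation p 0.4). Among the 9 sets of Raji H3K4me2, the contrast that chose the genes and is only described, ALDOA had separate groups, with 3.87, 2.93 and 3.30 multiples of the median peak untreated and 4.96, 5.31 and 4.36 treated. The treated values were all higher, with a ratio of 1.45, and covered 7330 bp of peak on average against 4410 bp. Over all genes, 1.29% had separate groups in Raji H3K4me2, 8.1% in Raji H3K4me3, 0.451% and 0.432% in REH H3K4me3 and H3K4me2, and 0.117% and 12.7% in NALM6. With the maximum signal 4 of all 49 sets separated (ALDOA and PFKP in Raji H3K4me2 and ENO1 in NALM6 H3K4me2 higher, ALDOA in NALM6 H3K4me3 lower). Leaving out the treated Raji H3K4me2 replicate 3 gave 8 sets. With the upper 0.5 of peaks only GAPDH in REH H3K4me2 separated (higher), of 38 sets. With multiples of the median region called in all 6 libraries 4 of 49 did, and ALDOA was not among them. These were HK2 and ENO1 in Raji H3K4me2 and HK1 in REH H3K4me3 (higher) and LDHA in REH H3K4me2 (lower). The share over all genes was counted only for the main setting, so these other counts cannot be set against it. This exact test cannot go below p = 0.1 for 3 libraries against 3.

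More genes were called between the untreated lines than after bryostatin. Between Raji and REH, 7 of the 9 genes with an H3K4me3 region in all 6 libraries were called, 3 higher and 4 lower in Raji (limma, Benjamini-Hochberg), where 51.3% of all regions were called. HK1 had centred log2 signals of -0.78, -0.66 and -0.61 in Raji and 0.08, 0.04 and -0.08 in REH. All Raji values were lower, by -0.70 (SE 0.0967, limma adjusted p = 0.000251), and this was called under every alternative in which it could be tested. With the upper 0.5 of peaks it could not be, as the HK1 region was below the median peak in Raji untreated 2 and 3 (0.887 and 0.906). GPI had 0.01, 0.52 and 0.68 in Raji and -0.41, -0.35 and -0.22 in REH, higher in Raji by 0.73 (SE 0.156, limma adjusted p = 0.00346). ENO1 had 1.53, 1.19 and 1.32 against 0.85, 0.90 and 1.04, higher by 0.42 (SE 0.1, limma adjusted p = 0.00628).

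GAPDH was higher in Raji by 0.46 (SE 0.108, limma adjusted p = 0.00542), with 1.89, 1.99 and 2.18 in Raji and 1.47, 1.46 and 1.74 in REH. Its called length was 8083 ± 636 bp in Raji and 5390 ± 922 bp in REH (SD, n = 3), and its maximum signal differed by -0.12, in the other direction. The merged Raji region (chr12:6531551-6541010) also overlapped IFFO1 and NCAPD2, and the merged REH region (chr12:6532011-6538140) overlapped GAPDH alone. ALDOA (-0.46, SE 0.0942, limma adjusted p = 0.00284), PFKP (-0.32, SE 0.0963, adjusted p = 0.0197) and HK2 (-0.24, SE 0.085, adjusted p = 0.0394) were lower in Raji. PKM (0.16, SE 0.0841, limma adjusted p = 0.143) and LDHA (-0.05, SE 0.0995, adjusted p = 0.708) were not called. The 7 calls fell to 2 with the maximum signal and to 1 with the mean signal per base or without centring. Over all 6729 regions the calls fell as well, from 3455 to 1728, 1550 and 1095 in these settings.

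For H3K4me2, 4 of 9 genes were called between Raji and REH, 1 higher and 3 lower in Raji, near the 46.8% of all regions. LDHA had the largest difference of the 9, with -1.42, -1.07 and -0.69 in Raji and 0.55, 0.40 and 0.30 in REH. All Raji values were lower, by -1.48 (SE 0.179, limma adjusted p = 1.8e-05). At the same start the H3K4me3 difference was -0.05 (SE 0.0995). The mean H3K4me2 signal at the LDHA start was 122 ± 6.72 RPKM in the 2 untreated Raji libraries with a peak there and 294 ± 38.1 RPKM in REH (SD, n = 3). HK2 had -0.64, -1.17 and -0.02 in Raji and 0.59, 0.48 and 0.58 in REH, lower by -1.16 (SE 0.221, limma adjusted p = 0.000779). For this mark the untreated Raji libraries had 8.31, 6.7 and 13.9 M mapped reads and the REH ones 18.8, 15.4 and 13.7 M. The part of sequencing depth in these differences was not tested.

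HK1 was lower in Raji for this mark too, by -0.46 (SE 0.139, limma adjusted p = 0.016), with separate groups. GAPDH was higher by 0.32 (SE 0.121, limma adjusted p = 0.0467), with overlapping groups. Without REH untreated replicate 3 the count was 2, those of LDHA and HK2, where 3024 of 7999 regions were called. PKM was not called on total H3K4me2 signal (-0.21, SE 0.131, limma adjusted p = 0.216) but its maximum signal, which in Raji stands in intron 1, was higher in Raji by 1.22 (limma adjusted p = 2e-06).

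**Figure D4:**
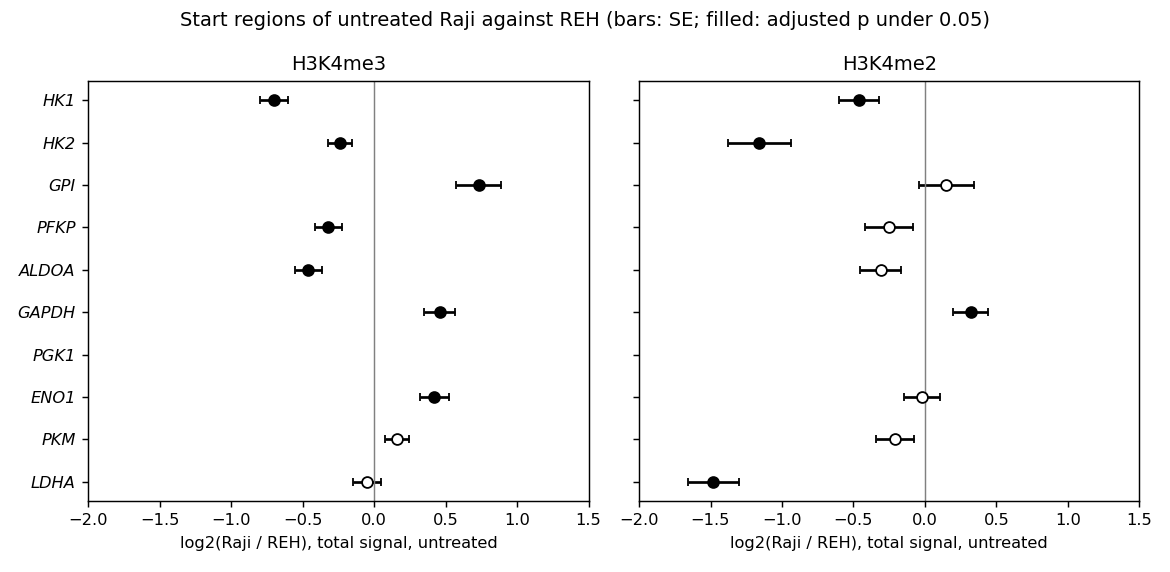
Difference of the start region between untreated Raji and REH cells as log2(Raji / REH) of the total signal on the horizontal axis, for H3K4me3 (left) and H3K4me2 (right), with bars of 1 SE, 3 libraries per line and filled points for an adjusted p under 0.05. LDHA lies near 0 for H3K4me3 (-0.05) and at -1.48 for H3K4me2, and GPI and HK1 lie on opposite sides for H3K4me3 (0.73 and -0.70).

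Against NALM6, 1 of 8 genes was called for H3K4me3 in Raji, where 20.2% of regions were, and 0 of 5 for H3K4me2, where 18.9% were. The gene was HK2, with 0.42, 0.48 and 0.65 in Raji and 0.92, 1.09 and 1.13 in NALM6, lower in Raji by -0.53 (SE 0.148, limma adjusted p = 0.0445). Without centring its difference was 0.65, since all regions then shift by 1.17. Between NALM6 and REH 0 of 8 (H3K4me3) and 0 of 5 (H3K4me2) genes were called, against 7.15% and 11.4% of regions. Without the differently scaled replicate 1 of NALM6, a choice made after seeing the data, Raji against NALM6 gave 4 and 1 genes and NALM6 against REH 3 and 0. The calls over all regions rose too, to 2316 of 5148 and 1534 of 4093 for Raji against NALM6. For NALM6 against REH they were 2119 of 5089 and 1805 of 4902.

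Away from the canonical starts, 2 H3K4me2 regions were present in 6 of 6 Raji and 0 of 6 REH libraries, a pattern held by 2.79% of all regions and picked out after the values were seen. The GPI region (chr19:34358311-34361580) covers the upstream starts. Its signal in Raji was 2.86, 1.55 and 1.95 multiples of the median peak untreated and 2.40, 2.13 and 1.60 treated, so the groups overlapped. In NALM6 it was called in 1 untreated (0.728) and 2 treated libraries (0.519 and 0.623), below all Raji values. H3K4me3 was called at the same starts in 3 untreated and 2 treated Raji libraries, in 1 treated NALM6 library and in no REH library.

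The HK2 region (chr2:74847231-74850990) lies in intron 1, with its summit 15268 bp past the start. Its signal in Raji was 0.591, 0.484 and 0.58 untreated and 0.798, 0.753 and 0.44 treated, and no REH or NALM6 library had a peak there. The treated values were both the highest and the lowest. A region absent from NALM6 and present in all Raji libraries was found for 5.34% of H3K4me2 regions. HK2 thus had less H3K4me2 at its start in untreated Raji than in REH cells, where the part of sequencing depth was not tested. It also had an intronic peak that was called in no REH library.

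The remaining distal regions varied within lines. An HK1 region (chr10:69344091-69346310, intron 2) was called in 4 of 6 Raji and 5 of 6 REH libraries and in no NALM6 library. An upstream LDHA region (chr11:18383011-18385040), which overlaps no coding gene and ends at -9523 bp from the start, was called in 6 of 6 REH, 4 of 6 NALM6 and 3 of 6 Raji libraries. Nearer intronic regions of HK1 and HK2 were each called in 2 treated and 0 untreated Raji libraries, where the treated libraries were deeper.

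**Figure D5:**
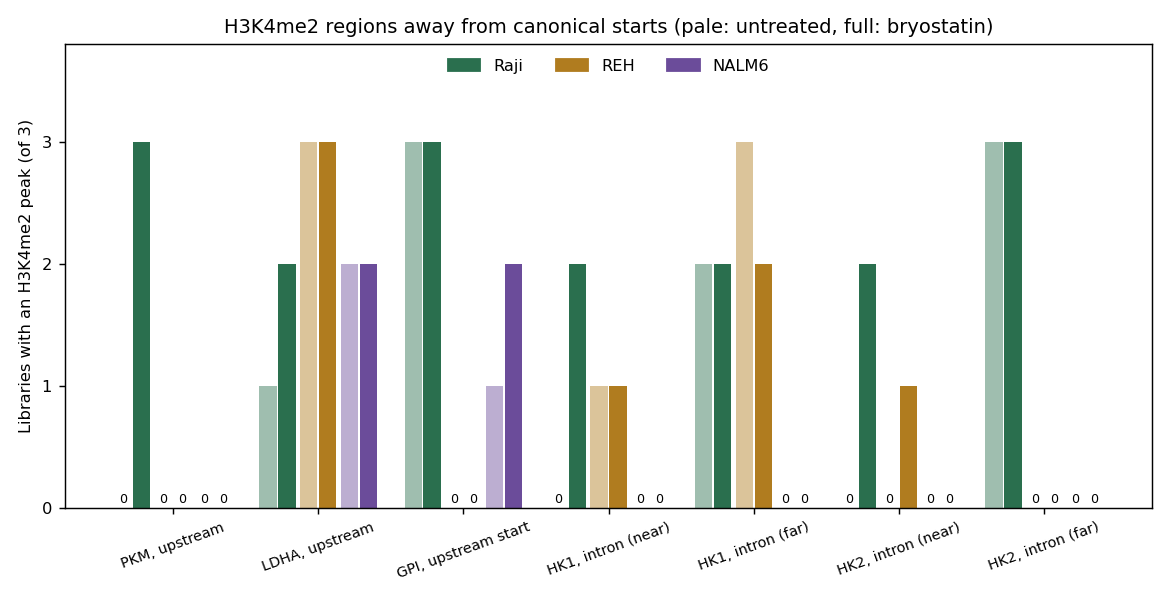
Number of libraries, of 3 per group, with an H3K4me2 peak in each region away from the canonical starts, with pale bars for untreated and full bars for bryostatin and colours for the lines. The PKM upstream region has 3 treated and 0 untreated Raji libraries, and the GPI upstream start and the far HK2 intron have 3 and 3 in Raji and 0 in REH.

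The other genes of the pathway were taken from 5 lists, of other glycolytic enzymes (10 genes), tissue-restricted enzymes (10), glucose and lactate transporters (6), regulators (12) and PKM splicing factors (4). After bryostatin none of the listed genes that could be tested was called by limma. These were 27 of 42 in Raji H3K4me3, 18 and 23 in REH H3K4me3 and H3K4me2, and 13 and 10 in NALM6, where 0.155%, 1.67%, 1.45%, 0.0% and 0.0% of all regions were called, and 1 gene had an unadjusted p under 0.05. That gene, SLC2A3, a high-affinity glucose transporter, is named after its values were seen. Its Raji H3K4me3 signal (chr12:7932791-7936820) was -1.72, -0.79 and -0.81 untreated and -0.20, 0.24 and 0.08 treated on the centred log2 scale. All treated values were higher, by 1.15 (SE 0.238), with an adjusted p of 0.213 (limma) and of 0.00127 with a replicate block. The near-identical neighbour SLC2A14 may share its reads.

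Between untreated Raji and REH, 13 of 18 listed genes were called for H3K4me3 (9 higher and 4 lower in Raji), against 51.3% of all regions, and 10 of 21 for H3K4me2 (3 higher and 7 lower), against 46.8%. The H3K4me2 count is near the share of all regions and says nothing particular to the lists. TIGAR, a phosphatase that lowers fructose-2,6-bisphosphate, was higher in Raji for both marks, by 0.97 (SE 0.108, limma adjusted p = 6.28e-05) for H3K4me3 and by 0.82 (SE 0.141, adjusted p = 0.00033) for H3K4me2. LDHB, the heart-type lactate dehydrogenase subunit, was higher in H3K4me3 by 0.62 (SE 0.0994, limma adjusted p = 0.000621), a mark for which LDHA was not called. PFKL, the liver phosphofructokinase, was lower by -0.61 (SE 0.123, limma adjusted p = 0.00231). For H3K4me2 SLC2A4, the insulin-responsive glucose transporter, was lower by -1.54 (SE 0.141, limma adjusted p = 1.49e-06) and ALDOC, the brain aldolase, higher by 1.07 (SE 0.124, adjusted p = 1.25e-05).

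Against NALM6, 2 of 15 listed genes were called for H3K4me3 and 3 of 13 for H3K4me2, against 20.2% and 18.9% of all regions. Between NALM6 and REH 0 of 15 and 0 of 14 were called by limma, with 3 and 2 at an unadjusted p under 0.05, against 7.15% and 11.4% of regions. TIGAR was higher in Raji by 1.25 (SE 0.145, limma adjusted p = 0.00125) and ENO3, the muscle enolase, lower by -0.95 (SE 0.188, adjusted p = 0.0116) for H3K4me3. For H3K4me2 PFKL (-1.08, SE 0.185, limma adjusted p = 0.00546) and SLC2A4 (-0.95, SE 0.28, adjusted p = 0.0483) were lower and TPI1, the triose phosphate isomerase, higher (0.77, SE 0.191, adjusted p = 0.0256). Without centring ENO3, PFKL and SLC2A4 differed by 0.22, 0.10 and 0.23, in the other direction. ENO3 was the one tissue-restricted enzyme with an H3K4me3 start peak in all 18 H3K4me3 libraries.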

How the data were processed

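Peaks of H3K4me2, H3K4me3 and H3K27me3 in 54 Cut&Tag libraries were used, and IgG samples were not used here. The authors trimmed reads with Trim Galore, aligned them to hg38 with Bowtie2, scaled coverage to RPKM, ran SEACR on each library separately for peaks, and compared groups with DESeq2. The deposited signal values are the total and the maximum of that coverage in each peak, in bins of 10 bp except in NALM6 replicate 1, whose scaling is not stated.

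Peaks of a line and mark were merged at 1 bp of overlap. The log2 total signal of regions called in all 6 libraries was centred on its median. Groups were tested by limma 3.58.1 under R 4.3.3, using eBayes with a trend, and p-values were adjusted over all regions by Benjamini-Hochberg and called at 0.05, after the code was tested on simulated data. Tables used data.table (version 1.17.8), pandas 2.3.3 and numpy 2.4.6 in Python 3.11.15, figures matplotlib 3.10.9, and genes GENCODE 44. Gene windows were compared with exact permutation tests, except in Raji H3K4me2. The main fits were unpaired, and pairs entered only through the replicate block, an alternative. Same-numbered libraries were taken as pairs where every correlation of their deviations was over 0.1: 0.48 to 0.54 in Raji H3K4me3, 0.18 to 0.31 and 0.13 to 0.21 in REH H3K4me3 and H3K4me2, and 0.63 to 0.68 and 0.40 to 0.45 in NALM6. In Raji H3K4me2 they were 0.42, -0.25 and -0.31, which gave no pairs. Differently numbered libraries 2 and 3 of NALM6 also correlated, at 0.507 and 0.565 for H3K4me3 and at 0.354 and 0.406 for H3K4me2. In Raji H3K4me3 these values were 0.157 and 0.195. The correlations therefore do not single out pairs by number between replicates 2 and 3 of NALM6.

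The genes and the lists were chosen with earlier results of these data known. Named are the 10 genes, at most 3 listed genes of largest change per comparison among those called, tissue-restricted enzymes with an H3K4me3 start peak, and 5 regions most like the PKM region. Of the listed genes, 1 is not reported here. Alternatives were maximum or mean signal, no centring, the upper 0.5 of peaks, other windows and overlaps, the replicate block and leaving out each library.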

Additional observations from a re-analysis of the deposited data

How the results depend on the processing

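No glycolysis gene was called for bryostatin or for a difference in response under any alternative, the replicate block included (0 genes with the block in each line and mark tested). For bryostatin the block called 132 of 9040 regions in Raji H3K4me3, against 14 in the main fit. In REH it called 202 of 7238 (H3K4me3) and 305 of 10791 (H3K4me2), against 121 and 157, and in NALM6 0 for both marks. The pairing by replicate number changed 1 call among all listed genes, that of SLC2A3 in Raji H3K4me3 (adjusted p = 0.00127, limma). Without centring SLC2A3 changed by 1.40 (adjusted p = 0.0289).

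Between lines the counts depended on the measure. The 7 H3K4me3 calls of Raji against REH became 2 with the maximum signal and 1 with the mean per base or no centring, and 5 to 7 when a library was left out. Over all 6729 regions 3455 calls became 1728, 1550 and 1095 in these settings, and 2787 to 3849 when a library was left out. The 4 H3K4me2 calls became 2 with the upper 0.5 of peaks, where LDHA and HK2 had too few libraries to be tested, and 2 to 5 when a library was left out (2 without REH untreated 3). Over all regions the calls went from 3744 of 7999 to 1662 of 3542 with the upper 0.5 of peaks. They were 2847 to 3820 of 7999 when a library was left out. Raji against NALM6 for H3K4me3 went from 1 to 0 with the mean per base, no centring or the upper 0.5 of peaks, and from 0 to 4 when a library was left out (4 without NALM6 untreated 1, 0 on leaving out either a Raji untreated library or NALM6 untreated 2 or 3). Over all 5148 regions 1040 calls became 493 with the mean per base and 0 without centring. They were 333 of 2388 with the upper 0.5 of peaks, and 553 to 2316 of 5148 when a library was left out. For H3K4me2 Raji against NALM6 gave 0 to 1 (1 without Raji untreated 3 or NALM6 untreated 1), where 342 to 1534 of 4093 regions were called. NALM6 against REH for H3K4me3 was 0 to 3 (3 without NALM6 untreated 1), where 81 to 2119 of 5089 regions were called. Without NALM6 replicate 1 throughout these counts of genes were 4, 1 and 3, where 2316 of 5148, 1534 of 4093 and 2119 of 5089 regions were called.

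Differences that turned were GAPDH in Raji against REH (-0.12 for H3K4me3 with the maximum, -0.06 for H3K4me2 with the mean per base), PKM for H3K4me2 with the maximum (1.22), and, against NALM6 without centring, HK2 (0.65), PFKL (0.10), SLC2A4 (0.23) and ENO3 (0.22). The cause was not tested. Of the values of single genes under settings that keep all libraries, 104 kept direction and call, 40 lost the call, 2 gained it and 7 turned.

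With the upper 0.5 of peaks the mean number of genes with an H3K4me3 start peak was 8.17. Leaving out a library it was 9.65 to 9.76 for H3K4me3, 9.18 to 9.47 for H3K4me2 and 0.294 to 0.824 for H3K27me3, the lowest without Raji untreated 2. The number of gene windows with separate groups went from 1 to 4 with the maximum and to 4 with scaling on the regions called in all 6 libraries, a choice made after seeing the data, and was 1 to 8 when a library was left out. It was 8 without Raji H3K4me2 bryostatin 3, 7 without REH H3K4me2 bryostatin 1 and 4 without REH H3K4me3 untreated 2. It was 3 without NALM6 H3K4me2 bryostatin 1 or Raji H3K4me2 untreated 1. It was 2 without REH H3K4me3 untreated 1, Raji H3K4me2 untreated 3, Raji H3K4me3 untreated 2 or Raji H3K4me3 bryostatin 2. The share of such windows over all genes was counted only for the main setting. The excess of treated over untreated Raji libraries with the PKM upstream peak was 2 with the upper 0.5 of peaks or equal numbers of peaks, against 3.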
